A study of Rattus norvegicus with 9 samples.

Results

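The transcripts described here were those on which the 3 testes labelled VC stood apart from all 6 other libraries of the series, with Control and VC+MOP testes together on the other side. For each transcript the gap was taken on the log2(value + 0.5) scale, as the lowest value of the higher side minus the highest value of the lower side. Of 19532 transcripts, 18745 reached a mean of 0.5 across all 9 libraries, 413 of these had a gap above 0, and the 100 with the largest gap are the members. There were 44 members higher in VC and 56 lower in VC. The choice used the measured values of all 9 libraries, so the separation of VC from the other libraries, and the position of VC+MOP on the side of Control, are descriptions with no test.

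The libraries came from left testes of male Sprague Dawley rats, with 3 libraries per group. The labels give an age of 6 to 7 weeks without saying at which point. Gavage began 8 weeks after the operation, and Control rats were fed for 12 weeks after it. This therefore cannot be the age at sampling in any group. Control rats had the operation without ligation and 12 weeks of ordinary feeding. VC (varicocele) rats had the left renal vein partly ligated and, from 8 weeks after the operation, received about 2 mL of saline daily by gavage for 4 weeks. VC+MOP rats had the same ligation and received 300 mg per kg per day of MOP, the polysaccharide of Morinda officinalis root, by gavage over the same 4 weeks. VC and VC+MOP thus share ligation and gavage; Control had no ligation, and the labels do not mention a gavage for it. Operated rats with no dilated veins or with an atrophied left kidney were left out by the submitters. Whether every library comes from its own rat is not stated in the labels, and the p-values reflect library-to-library spread, which may be technical.

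A varicocele is a widening of the testis's draining veins, and the slowed venous return is known to warm the testis and to raise hypoxic and oxidative stress in it. The testis holds germ cells in all stages of spermatogenesis beside Sertoli, Leydig, vascular and immune cells, and it makes an unusually wide set of transcripts and splice forms. A gene can give several transcripts, and a table of transcripts can change where the sum over the gene does not. In bulk tissue, fewer cells of a type and less RNA per cell cannot be told apart. Gene names could be matched to 0 of the 19532 identifiers, so testis cell markers were not checked, no gene names, roles or sequences are given, and transcripts other than the 2 with the largest gap in each direction are given by their rank. The abundances summed to between 478800 and 486011 per library. The table does not name their unit and gives no read counts, so depth is unknown and no counting interval is given.

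The gaps were small for most members. The largest was 2.99 and the median 0.18 log2 units, with quartiles of 0.13 and 0.27. A gap of 0.5 or more was seen in 10 members, and 62 had a gap below 0.2. Just inside the limit, the member of rank 99 had a gap of 0.0932 and that of rank 100 a gap of 0.0925. Just outside, the transcripts of rank 101 and 102 had gaps of 0.0924 and 0.0907, so the limit of 100 cuts through a continuous range.

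**Figure D1:**
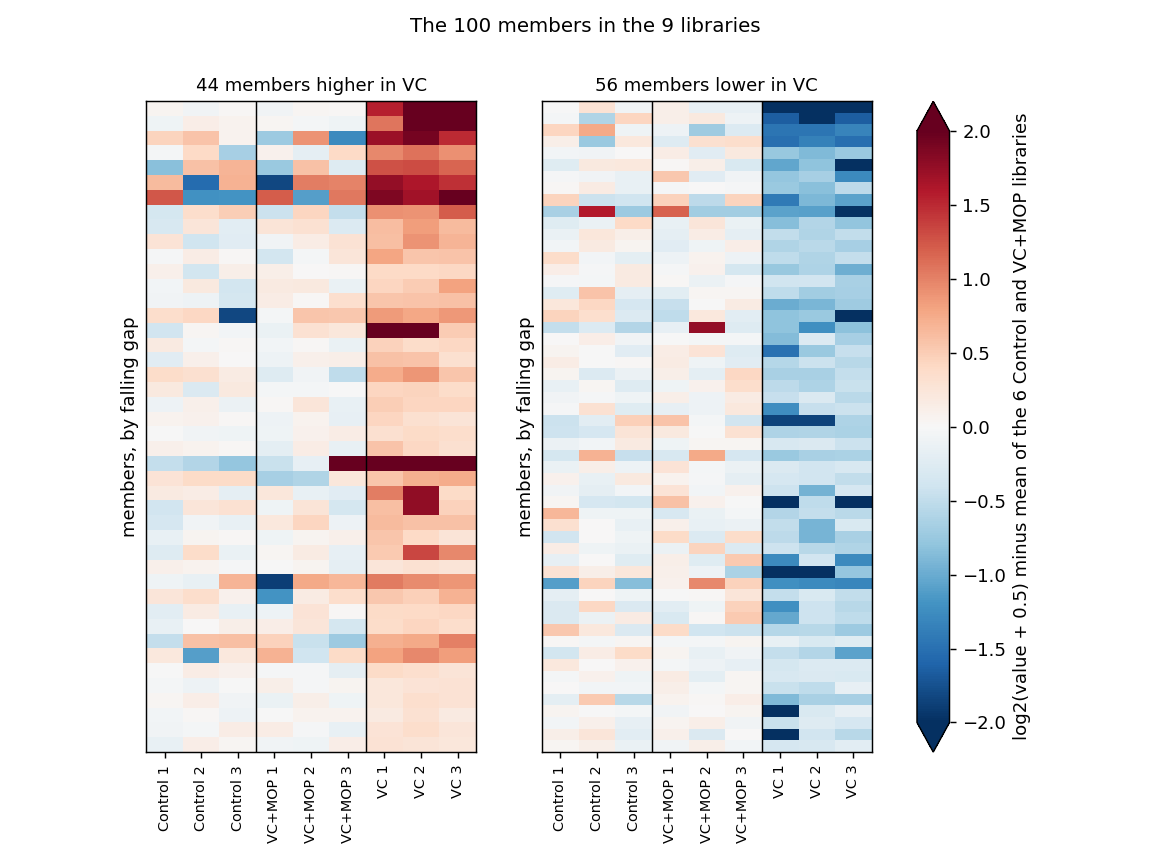
Each row is a member and each column a library; colour shows log2(value + 0.5) minus the mean of the 6 Control and VC+MOP libraries, with differences beyond 2 drawn in the end colours. The 44 members on the left are higher and the 56 on the right lower in all 3 VC libraries, as the rule requires, and single libraries of each group stand apart in some rows.

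The members lower in VC were led by ENSRNOT00000023376. Its values were 3.95, 4.95 and 3.77 in Control, 0.00095, 0.00156 and 0.000601 in VC, and 4.35, 3.51 and 3.5 in VC+MOP. All 3 VC libraries were thus close to 0 while the other 6 lay within a narrow band, and a ratio to such low values is not given. Its gap of 2.99 was the largest of all 413.

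The second member lower in VC by gap, ENSRNOT00000046744, was lower in VC without being near 0. It stood at 9.02, 5.94 and 12.7 in Control, at 2.63, 1.96 and 2.64 in VC, and at 10.2, 10.8 and 8.71 in VC+MOP. The means were 9.21 ± 3.37, 2.41 ± 0.392 and 9.91 ± 1.08 (SD, n = 3 each), so the mean of the other 6 libraries was 3.97 times that of VC. Control libraries spread over more than a 2-fold range, and the lowest of them, Control 2, set the gap of 1.04.

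Both leading members higher in VC were near 0 outside it. ENSRNOT00000081599 was listed at 1.04, 2.76 and 2.24 in VC, at 0.0407, 0 and 0.0315 in Control, and at 0, 0.0346 and 0.0292 in VC+MOP. ENSRNOT00000082319 was listed at 0.618, 3.45 and 2.9 in VC, at 0, 0.0818 and 0.0591 in Control, and at 0.0464, 0.0172 and 0 in VC+MOP. In both, VC 1 had the lowest VC value and set the gap, and the 6 other libraries were all below 0.1. Their gaps were 1.51 and 0.94. Their means in VC were 2.01 and 2.32, so both reached the mean of 0.5 across all 9 libraries only through VC. The member of rank 38 did so too, at 4.19, 2.74 and 0.627 in VC and at most 0.481 in any other library. The deposited table also held no transcript with a mean below 0.5 in every group. No support is drawn from the low values of these members outside VC.

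**Figure D2:**
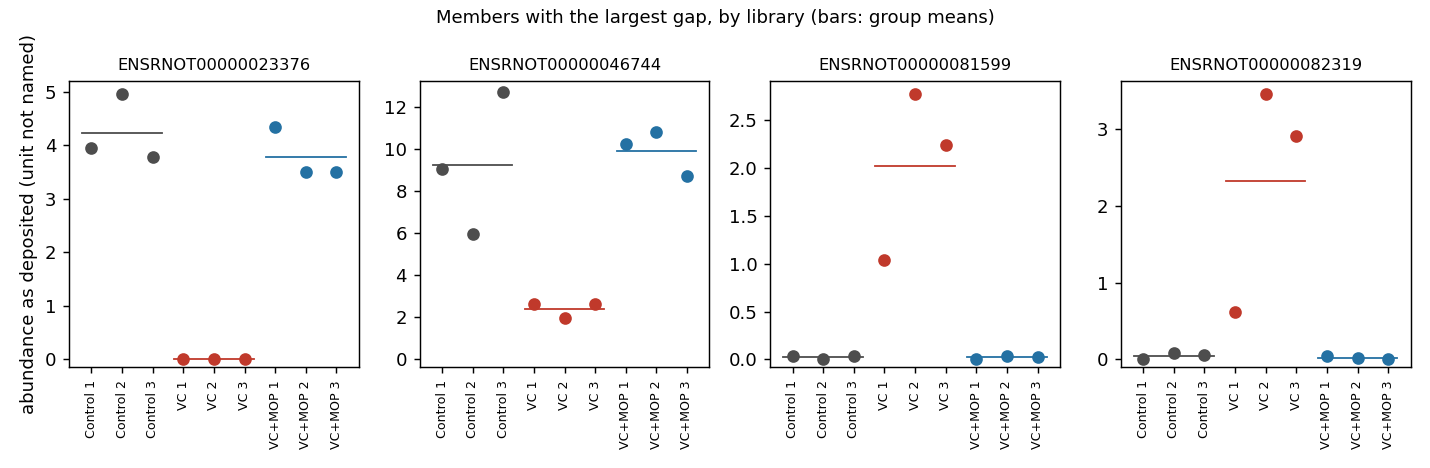
Abundance as deposited, on a linear axis, of the 2 members lower and the 2 members higher in VC with the largest gap; points are libraries and bars group means. ENSRNOT00000023376 lies close to 0 in all 3 VC libraries, ENSRNOT00000046744 between 1.96 and 2.64, and the 2 others are below 0.1 in all Control and VC+MOP libraries.

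A low side near 0 was the exception among the members. In 13 of 100 members every library of the low side was below 0.5, 3 of them higher and 10 lower in VC. Below 0.1 in every library of the low side were 2 members higher and 2 lower in VC. At least 1 library was listed at 0 in 11 of 100 members and in 2.91% of the 18745 transcripts.

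Most members were graded differences between measured levels. Among the 44 higher in VC, the mean of VC was 1.64 times that of the other 6 libraries in the median member, with 16 members at 2-fold or more and 17 below 1.5-fold. Among the 56 lower in VC, the mean of the other 6 was 2.01 times that of VC in the median member, with 28 members at 2-fold or more and 11 below 1.5-fold. The smallest ratios of means were 1.23 and 1.25 for the 2 directions.

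At higher abundance, 3 members show such graded differences. The member of rank 9 was lower in VC: it stood at 10.9, 10.8 and 11.5 in Control, at 6.53, 5.93 and 6.61 in VC, and at 12.7, 9.63 and 13.0 in VC+MOP. The member of rank 51 was higher in VC, with 13.8, 13.2 and 13.1 in Control, 17.4, 18.2 and 17.9 in VC, and 13.0, 14.8 and 15.4 in VC+MOP. In both, the 3 VC libraries lay closer to each other than to any library of the other groups. The member with the highest mean, rank 86, was also higher in VC, at 20.1, 22.4 and 21.4 in Control, 26.2, 25.5 and 24.2 in VC, and 19.7, 19.7 and 17.7 in VC+MOP. These 3 ranks were picked for illustration after their values were seen.

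The members were rarer than most transcripts of the table. Their mean abundance ran from 0.513 to 21.9 with a median of 1.79, against a median of 6.03 over all 18745 transcripts. A mean from 0.5 to 1 was found for 25 of 100 members and 12.8% of all transcripts, and a mean from 1 to 5 for 55 members and 33.3%. Only 1 member had a mean of 20 or more, against 25.3% of all transcripts. The median was 3.29 for members higher in VC and 1.46 for those lower in VC, a difference that was not tested.

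Summed over the members higher in VC, abundance ran from 161.6 to 176.2 in Control, from 264.9 to 279.7 in VC and from 155.7 to 180.0 in VC+MOP. Summed over those lower in VC, it ran from 168.5 to 186.3 in Control, from 72.6 to 103.3 in VC and from 175.0 to 190.3 in VC+MOP. Together the members held between 0.0682% and 0.079% of a library's summed abundance, so these transcripts make up a very small part of the measured RNA.

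In some members the separation of VC came beside a wide spread within a group. The VC libraries spanned more than 1 log2 unit in 14 of 100 members and in 7.28% of all transcripts. The corresponding figures were 12 members and 7.73% for Control, and 12 members and 7.3% for VC+MOP. The median span of a member was 0.21 log2 units in VC, 0.32 in Control and 0.39 in VC+MOP, against 0.24, 0.23 and 0.24 over all transcripts. The rule itself limits the spread towards the other side.

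Single libraries stood out in several of these. The member of rank 99, lower in VC, was listed at 1.35, 17.8 and 15.8 in VC, at 25.6, 27.9 and 20.3 in Control, and at 25.2, 19.1 and 23.7 in VC+MOP, so VC 1 lay far below the other VC libraries. The member of rank 13, higher in VC, was listed at 3.71, 3.21 and 4.21 in VC, at 2.24, 0.0022 and 0.00385 in Control, and at 2.17, 0.0373 and 1.91 in VC+MOP. Outside VC it was thus near 0 in 3 libraries and near 2 in the other 3, across both groups. The member of rank 56, higher in VC, was listed at 5.21, 4.73 and 13.0 in VC, at 0.113, 0.0658 and 0 in Control, and at 0.124, 0.263 and 4.16 in VC+MOP. There VC+MOP 3 stood next to the VC libraries and apart from the other 2 of its group. These ranks too were picked after their values were seen.

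How often the libraries of a group stood apart in this way was counted for each group. VC did not overlap the other 6 libraries in 413 transcripts (2.2% of 18745, with 1.12% higher and 1.08% lower). Control did not overlap its other 6 in 427 (2.28%), and VC+MOP did not in 690 (3.68%). The 100 largest gaps had a median of 0.18 for VC, 0.14 for Control and 0.13 for VC+MOP, and 38, 25 and 24 of them were at least 0.2. In the same order 10, 8 and 9 were at least 0.5. The largest gap was 2.99 for VC, 1.12 for Control and 3.57 for VC+MOP, and VC+MOP had the widest gap at each of ranks 1 to 5. The 3 counts share all libraries and their difference was not tested, so nothing particular to VC is drawn from them.

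**Figure D3:**
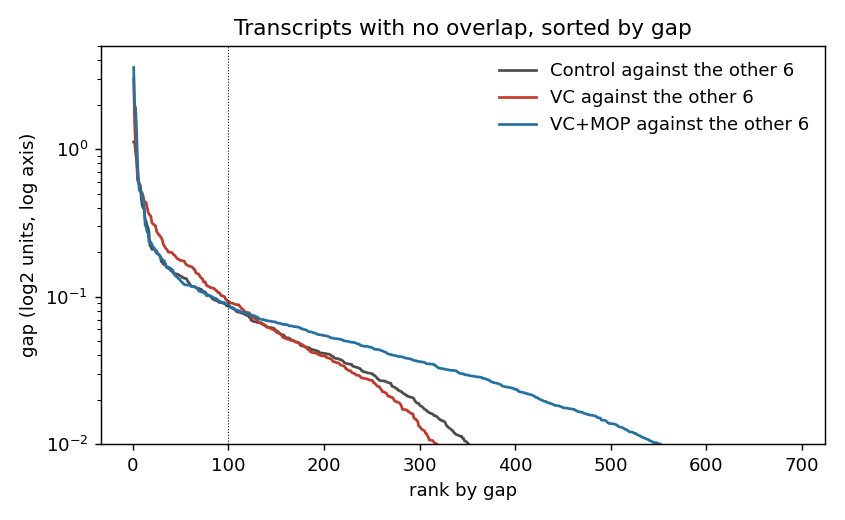
Gap in log2 units (log axis, values below 0.01 not shown) against rank, for transcripts on which 1 group does not overlap the other 6 libraries; the dotted line marks rank 100. The VC+MOP curve is highest at ranks 1 to 5, and the VC curve over much of the rest of the first 100 ranks. The VC+MOP curve is the longest, with 690 transcripts.

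The rule was also applied with 2 of the 3 libraries of a group, and the library left out was then placed. Of the 100 transcripts chosen without VC 1, that library lay beyond all 6 others on the same side in 44 and on the opposite side in 6. Without VC 2 these counts were 47 and 15, and without VC 3 they were 47 and 8. Over all transcripts, a VC library lay above all 6 others in 12.8% to 15.4% and below them in 12.5% to 15.1%. The same procedure gave 29 to 38 on the same side and 12 to 15 on the opposite side for the Control libraries, which over all transcripts lay above all 6 others in 11.7% to 16.3% and below them in 10.4% to 15.6%. For the VC+MOP libraries it gave 35 to 45 on the same side and 6 to 10 on the opposite side, with 13.5% to 15.6% above and 13.0% to 21.1% below over all transcripts. The 6 other libraries entered both steps, so these counts are not independent of the choice, and the difference between groups was not tested.

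**Figure D4:**
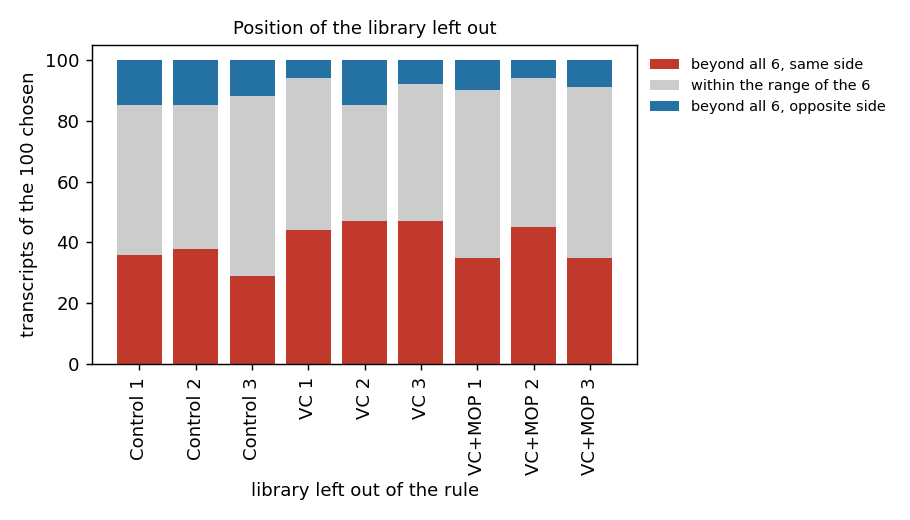
For each of the 9 libraries, the bar divides the 100 transcripts chosen without that library by where it then stood. Beyond all 6 libraries of the other groups and on the side of its own group, it was found in 44 to 47 transcripts for VC, 29 to 38 for Control and 35 to 45 for VC+MOP.

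In the fit across all transcripts, few members passed the threshold even in the contrasts by which they were chosen. For VC against Control 1 of 100 members had a limma adjusted p below 0.05, the member ENSRNOT00000023376, and 85 had an unadjusted p below 0.05. Over all 18745 transcripts these shares were 0.016% and 4.37%. For VC+MOP against VC 1 member passed the adjusted threshold, again ENSRNOT00000023376, and 84 had an unadjusted p below 0.05, against 0.016% and 6.23% of all transcripts. The rule used these contrasts, and the 2 share the VC libraries, so nothing is read from these counts.

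VC+MOP against Control compares the 2 groups that the rule puts on one side without telling them apart, and asks how far the members of treated testes stood from those of sham-operated testes. The rule does not use which of these 6 libraries belong to which group, but it took transcripts whose 6 values lie on one side of VC. This can favour small differences here, though it sets no limit on the side away from VC. The counts below are therefore a description. Of 100 members 0 passed (smallest limma adjusted p = 0.735), against 0.0373% of all 18745 transcripts, which is 7. At an unadjusted p below 0.05 stood 7 members, 3 higher and 4 lower in VC+MOP, against 6.55% of all transcripts (3.16% higher and 3.38% lower). All 3 VC+MOP libraries lay above or all below the 3 Control libraries in 10 members and in 13.2% of all transcripts. Because of that choice, nothing is read from the members' shares beside those of all transcripts.

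For each of the 4 named members the 95% interval of the difference between VC+MOP and Control held 0. ENSRNOT00000023376 had a log2 difference of -0.14 ± 0.13 (SE, limma adjusted p = 0.833), and ENSRNOT00000046744 one of 0.15 ± 0.24 (limma adjusted p = 0.902). ENSRNOT00000081599 had -0.01 ± 0.26 (limma adjusted p = 0.997) and ENSRNOT00000082319 had -0.07 ± 0.42 (limma adjusted p = 0.981). The 95% interval of ENSRNOT00000023376 ran from -0.44 to 0.17, and that of ENSRNOT00000082319, the widest of the 4, from -1.04 to 0.9. For each transcript the fit takes 1 spread from all 9 libraries, so these SEs and intervals also depend on the VC libraries. ENSRNOT00000082319 spanned 1.82 log2 units in VC, 0.22 in Control and 0.13 in VC+MOP. ENSRNOT00000023376, close to 0 in VC, spanned 0.003 there, 0.35 in Control and 0.28 in VC+MOP.

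The median absolute log2 difference between VC+MOP and Control was 0.13 over the members and 0.1 over all transcripts, and the median SEs were 0.19 and 0.12. These SEs, and the intervals below, also take in the spread of the VC libraries. Limits of 2-fold up and down held the whole 95% interval for 76 of 100 members and for 87.6% of all transcripts, and limits of 1.5-fold did so for 47 members and 71.4%. A p above the threshold does not show that the 2 groups had the same level.

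On the log2 scale, the position of VC+MOP between the VC mean (set to 0) and the Control mean (set to 1) had a median of 0.991, with quartiles of 0.813 and 1.25. VC+MOP lay past the Control mean in 49 members and short of it in 51. Among members higher in VC it was past Control in 22 of 44, and among those lower in VC in 27 of 56. In 2 members VC+MOP lay nearer to VC than to Control. One, of rank 35, stood at 8.74, 9.14 and 1.54 in Control, at 12.6, 11.8 and 12.7 in VC, and at 6.56, 10.2 and 9.97 in VC+MOP, so that the low value of Control 3 sets the Control mean. The other, of rank 90, stood at 2.31, 1.95 and 2.07 in Control, at 1.41, 1.52 and 1.52 in VC, and at 1.88, 1.76 and 1.68 in VC+MOP, between the 2 groups. A position near 1 is in part fixed by the rule, which takes a transcript only when all VC+MOP libraries lie on the Control side.

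Whether the polysaccharide restored the members to the Control level cannot be tested here. The rule favoured a large VC difference and VC+MOP values on the side of Control, and the intervals compare these same values. The VC difference was also taken as exact, and it shares the Control libraries. The counts below are therefore a description. The 95% interval of the difference between VC+MOP and Control lay within 0.5 of the member's own VC difference, in either direction, for 6 of 100 members, and within the whole of that difference for 55. In 16 members it reached the VC mean. In 94 members the interval reached past 0.5 of the VC difference. The interval's width also takes in the spread of the VC libraries, so these counts do not reflect the spread of Control and VC+MOP alone. The member of rank 95, picked as an example, stood at 0, 1.44 and 1.64 in VC. It stood at 1.98, 1.88 and 1.84 in Control, and at 1.80, 1.90 and 2.00 in VC+MOP. Its interval ran from -1.1 to 1.1, past its VC difference of -0.91. The place of all 100 on the side of Control was required by the rule.

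**Figure D5:**
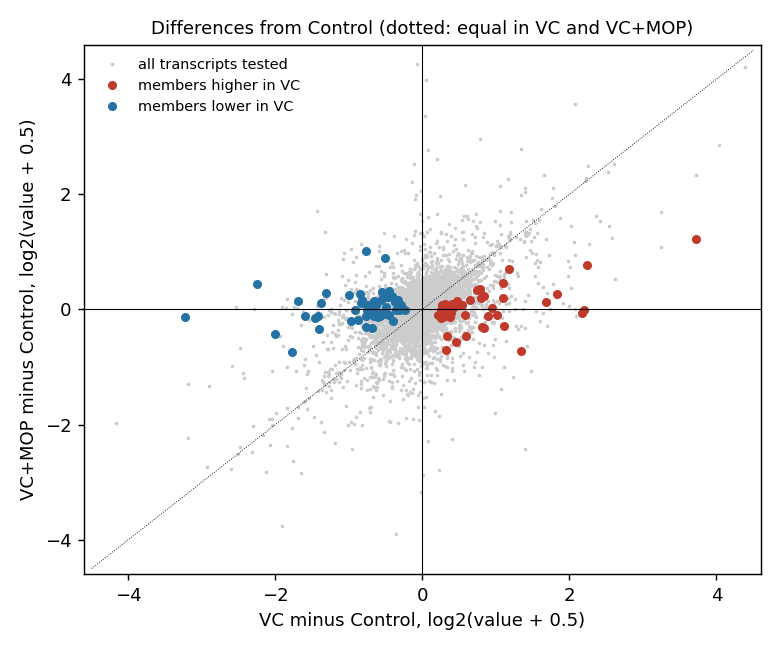
Log2 difference from Control in VC (x axis) and in VC+MOP (y axis) for all 18745 transcripts (grey), members higher in VC (red) and members lower in VC (blue); both axes share the Control libraries. The rule places VC+MOP on the Control side of VC, with no limit on its distance past Control. The members' VC+MOP differences run from -0.73 to 1.23. Their median absolute value is 0.13, against 0.1 over all transcripts.

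One library decided a call in VC+MOP against Control. Without VC+MOP 3 the member of rank 60 passed, with a log2 difference of -0.98 ± 0.1 (SE, limma adjusted p = 0.0256, in a range of 0.0256 to 0.781 for the smallest adjusted p over the 9 libraries left out). It stood at 3.61, 3.94 and 3.9 in Control, at 4.46, 5.03 and 5.14 in VC, and at 1.63, 1.74 and 3.46 in VC+MOP. VC+MOP 1 and 2 were thus below Control as VC was above it, and this member had the position farthest past Control, 3.21. With all 9 libraries it did not pass (log2 difference -0.7 ± 0.22, limma adjusted p = 0.735). Over all transcripts 16 passed without VC+MOP 3, against 7 with all 9 libraries, so nothing particular to this member is drawn from the call.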

How the data were processed

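RNA from left testes was sequenced in 9 libraries. Libraries were made from fragmented total RNA with random priming and a dUTP-marked second strand, per the labels' protocols. The deposited table gives each transcript a linear abundance signal, 1 column per library per the file headers. Its unit and annotation release are not given in the sources used here. HISAT2 2.0.5, StringTie 1.3.1c, cutadapt and the human build hg19 are named in the submitters' processing notes, while the identifiers are those of rat transcripts.

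Members and their rule were chosen with earlier results of these data known. Values were used with no further scaling as log2(value + 0.5), for transcripts with a mean of 0.5 or more, so fold changes of rare transcripts are understated. limma 3.58.1 in R 4.3.3 fitted 1 model with the group as its only term to all 9 libraries (limma-trend, 6 residual degrees of freedom). P-values were two-sided and Benjamini-Hochberg adjusted over all 18745 transcripts for each comparison. The fit was tried on simulated data with the same spread in every group. How it behaves where the groups differ in spread was not tested. The rule for naming, without gene symbols, took the 2 members with the largest gap in each direction and, for VC+MOP against Control, members past the threshold, of which there were 0. Lists of testis markers and pathway genes could not be applied without gene names. Alternatives were other pseudocounts (0.1 and 1), filters, scalings, a replicate block, fits to only the compared groups, and leaving out each library. Placing the library left out was added after seeing the data. Figures were drawn with matplotlib 3.10.9.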

Additional observations from a re-analysis of the deposited data

How the results depend on the processing

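Membership changed most when a VC library was left out. Such a library is 1 of 3 on its side of the rule, while each of the others is 1 of 6. Applied again without 1 library, the rule kept between 39 and 76 of the 100 members: 39, 40 and 42 without VC 1, 2 and 3, and 66 without VC+MOP 2. It then found between 572 and 1280 transcripts with no overlap (413 with all 9), with a median gap between 0.199 and 0.371; with fewer libraries a lack of overlap is easier to meet. Without VC 1, 2 and 3 there were 1269, 1280 and 1278 such transcripts and the median gap was 0.348, 0.371 and 0.366. Without Control 1, 2 and 3 and VC+MOP 2 there were 628, 661, 643 and 695. When Control was the group set apart, leaving out 1 of its own libraries raised the count from 427 to between 1098 and 1448. For VC+MOP it rose from 690 to between 1362 and 2024. Nothing particular to the VC libraries is therefore drawn from these counts. Under the other pseudocounts, filters and scalings between 75 and 95 members were kept, and between 352 and 450 transcripts had no overlap. The 75 came with a mean of 1 or more, which 25 members do not reach, so all that could be kept were. The other settings kept between 85 and 95. Past the adjusted threshold (limma), leaving out 1 library gave between 1 and 3 members for VC against Control, between 1 and 3 for VC+MOP against VC, and 0 or 1 for VC+MOP against Control. Counts over 1 were 2 without Control 2, VC+MOP 2 and VC+MOP 3 and 3 without VC 1 and VC 3 for VC against Control; for VC+MOP against VC they were 2 without Control 2, Control 3, VC 2 and VC+MOP 3, and 3 without VC 1 and VC+MOP 2. Over all transcripts the calls without 1 library ran from 2 to 11, from 3 to 13 and from 6 to 16 in the 3 comparisons. With all 9 libraries they were 3, 3 and 7. The rule used the first 2 comparisons, so nothing is read from the members' counts. The cause of the changes was not tested. VC+MOP against VC gave 2 members, and 5 over all transcripts, when these groups were fitted alone. The other alternatives gave 1, 1 and 0 members in the 3 comparisons. With the replicate number as a block these were also 1, 1 and 0; pairing by number was not seen (deviations of libraries with the same number correlated at -0.0657 to 0.039, and 3 of 9 libraries correlated best with their own number). Depth is unknown, so its limit on rare members was not tested.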

Other observations

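The edge of the gap was spread over the libraries. On the VC side it was set by VC 1 in 25 members, by VC 2 in 36 and by VC 3 in 39. On the other side a Control library set it in 46 members and a VC+MOP library in 54, from 13 each for Control 2 and VC+MOP 1 to 23 for VC+MOP 2.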
